A study of Homo sapiens with 29 samples.

Results

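Low doses of N-OH-PhIP (0.1, 1 and 5 nM) were set against middle doses (10, 50 and 100 nM) in BEAS-2B cells, with 9 arrays in each range and 18 of the 29 arrays of the series in all. Arrays were chosen by the dose in their sample titles, and no measured value entered the choice. The 0.5 nM arrays (replicates 1 and 3) were kept out of the test, as were DMSO, 500 nM and 1000 nM, with 3 arrays each. Every group, the solvent controls included, received 1% DMSO for 24 h, with cells at about 70% confluence in LHC-9 medium on plates coated with fibronectin, collagen and albumin. The series' design text ends at 0.5 nM as its smallest concentration, whereas titles go down to 0.1 nM, and doses follow the titles here. Arrays of a dose came from triplicate cultures of a single line, so p-values measure the spread between such cultures. The labels used here name no batch, and a batch that differed between the ranges cannot be told apart from dose.

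BEAS-2B is an established line of bronchial epithelium, immortalised with a virus that carried SV40 genes, and the SV40 large T antigen binds p53. N-OH-PhIP is the hydroxylated form of PhIP, an aromatic amine from charred meat and tobacco smoke, and its reactive esters attach to guanine in DNA. As background, immediate early genes such as EGR1 and FOS encode transcription factors whose messages appear within minutes of a growth factor signal through the ERK kinases and then decay quickly. The transcription factor p53 is stabilised after DNA damage and drives genes of growth arrest, repair and cell death. Common fragile sites are chromosome regions prone to breakage under replication stress, and several lie within very long genes.

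The upstream regions of EGR1, FOS and TXNIP are printed as examples of genes that stepped up between the ranges without overlap, each with a known response element there. Each line holds the 250 bases before the transcription start, 5′ to 3′ on the gene's strand, from RefSeq on GRCh38.p14. EGR1 is at chr5:138465229-138465478 on the plus strand, FOS at chr14:75278578-75278827 on the plus strand and TXNIP at chr1:145996580-145996829 on the minus strand. Capitals mark matches on either strand to a CArG box, the motif of serum response factor, in EGR1, to TGACGT, the core of the cAMP response element, in FOS, and to a pair of CACGAG letters 5 bases apart, a carbohydrate response element, in TXNIP (the bases between them are also in capitals).
EGR1: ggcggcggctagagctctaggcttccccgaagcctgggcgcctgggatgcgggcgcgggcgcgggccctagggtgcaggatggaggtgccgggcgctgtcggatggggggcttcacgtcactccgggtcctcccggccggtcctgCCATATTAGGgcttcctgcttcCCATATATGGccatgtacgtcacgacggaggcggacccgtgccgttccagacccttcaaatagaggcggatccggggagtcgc
FOS: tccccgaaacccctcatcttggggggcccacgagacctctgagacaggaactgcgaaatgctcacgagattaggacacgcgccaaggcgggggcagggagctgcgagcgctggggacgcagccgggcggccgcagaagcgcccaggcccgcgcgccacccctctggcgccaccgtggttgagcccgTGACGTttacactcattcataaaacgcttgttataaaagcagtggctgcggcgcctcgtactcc
TXNIP: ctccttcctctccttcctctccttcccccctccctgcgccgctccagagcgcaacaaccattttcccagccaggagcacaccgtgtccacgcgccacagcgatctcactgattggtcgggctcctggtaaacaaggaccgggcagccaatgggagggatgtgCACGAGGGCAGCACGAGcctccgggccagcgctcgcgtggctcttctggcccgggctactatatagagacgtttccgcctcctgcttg
Of 35116 such windows, 1.16% held a CArG box and 7.1% held TGACGT, and 2 held the carbohydrate element. The marked matches do not overlap each other. They describe these letters and do not show that a factor bound there.

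Values are intensities per probe set on a 3′ expression array, and levels of different probe sets were not compared. Tests used log2(intensity + 16), an offset that understates changes of dim probe sets, on the 27307 probe sets with a mean at or above the median level, an intensity of 37.4. Detection calls were not used, so a level under 37.4 was not shown to be above background. The contrast gave the 3 doses of a range equal weight, and a probe set was called in limma at a Benjamini-Hochberg adjusted p under 0.05; members counted as higher or lower are called ones. Array medians ran from 35.8 to 38.4, arrays of a dose correlated at 0.991 to 0.998 across probe sets, and the number of arrays limits the precision.

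The ranges differed at 6336 of 27307 probe sets (23.2%), with 3574 (13.1%) higher and 2762 (10.1%) lower at the middle doses. Most differences were small. At least 1.5-fold was reached by 67 higher (0.245%) and 36 lower (0.132%) probe sets, or 103 in all (0.377%). At 444 (1.63%) the ranges did not overlap, with the middle arrays above at 323 (1.18%) and below at 121 (0.443%). An unadjusted p under 0.05 was reached by 37% of probe sets. On the first principal component of the 18 arrays, with 25.6% of the variance, low arrays ran from -22.2 to -2.80 and middle arrays from 3.08 to 20.8. The ranges did not overlap on this axis.

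Differences within a range were fewer. The moderated F test called 15 probe sets (0.0549%) among the 3 low doses and 375 (1.37%) among the 3 middle doses. Without the level filter the order turned, with 862 among the low and 254 among the middle doses of 54613 probe sets. The low count was 223 without 5 nM replicate 2, 112 without 0.1 nM replicate 1, and 0 to 3 on leaving out any single 1 nM array or either of 0.1 nM replicates 2 or 3. The middle count was 198 without 100 nM replicate 1, 211 without 100 nM replicate 2, 238 without 10 nM replicate 2 and 244 without 10 nM replicate 3. Of the called probe sets, 114 of the higher and 132 of the lower also differed among the middle doses, against 4 and 3 among the low doses.

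The count of 6336 rests on the spread between cultures of a dose. With the spread between the doses of a range as the error, 811 probe sets were called from the 6 dose means, 592 higher and 219 lower, and with dose as a random block 2975 were called. The ratio of 3′ to 5′ signal of the actin and GAPDH controls, a measure of RNA integrity and amplification, also moved with the ranges. Its log2 mean over both controls had a lowest, median and highest value of 1.18, 1.27 and 1.42 at low doses and 1.11, 1.16 and 1.22 at middle doses. The difference was -0.12 (exact two-sided permutation p = 0.00095 over the 18 arrays; p = 0.1 over the 6 dose means, the smallest they allow). The actin ratio differed by -0.22 (exact permutation p = 0.0007) and the GAPDH ratio by -0.01 (p = 0.21, exact permutation). DMSO arrays stood at 1.21, 1.19 and 1.13. With this ratio as a covariate, 770 probe sets were called, 507 higher and 263 lower. Its part in the results below was not tested further. Counts with it as a covariate are given beside most gene lists, but not for the classes of gene length. They are read against the 507 higher and 263 lower of all 27307 probe sets, and counts from dose means against 592 and 219. Because the ratio moved with the ranges, a call can be lost with it although the difference is no smaller.

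**Figure D1:**
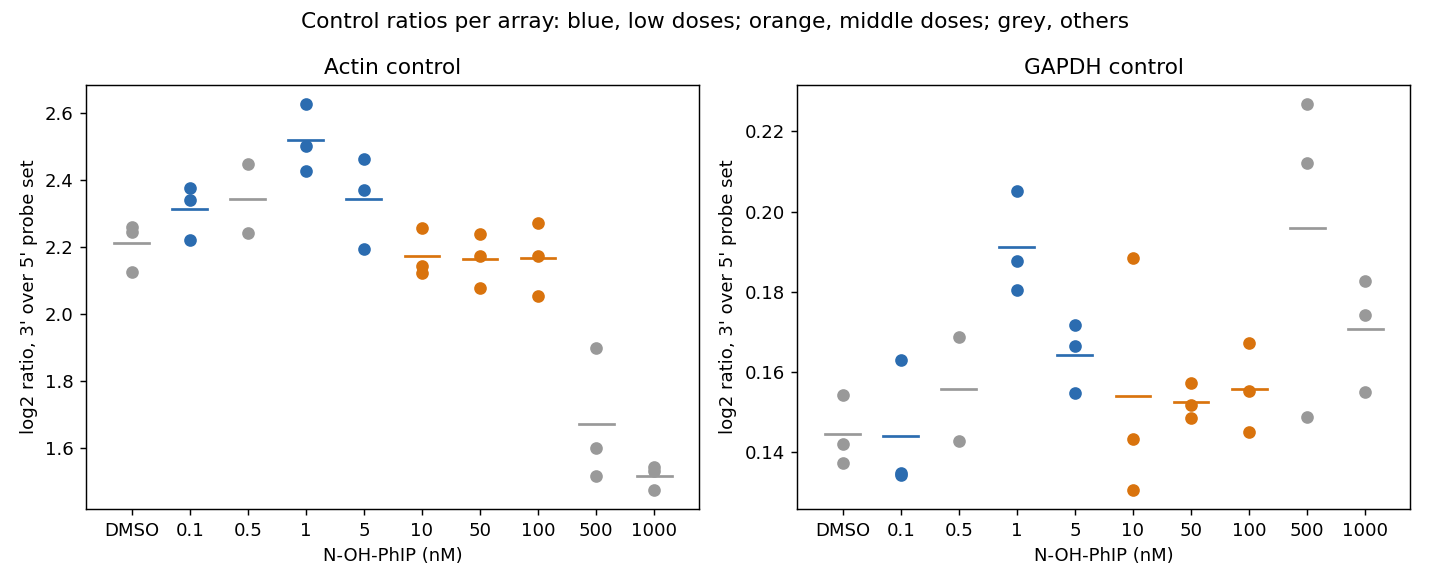
Log2 ratio of the 3′ over the 5′ control probe set for each array (points; bars are group means) by group, for actin on the left and GAPDH on the right. Middle-dose actin ratios run from 2.05 to 2.27 and low-dose ratios from 2.19 to 2.63, and the ranges overlap for both controls.

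Immediate early genes were higher at the middle doses than at the low doses, and their middle-dose levels lay near those of DMSO. Of the 28 tested, 26 rose and 0 fell, with a median difference of 0.38 log2. Over all 12174 tested genes, each represented by its brightest tested probe set, 14.3% rose and 10.9% fell, with a median of 0.01. The counts of all lists below are read against these shares. The members that were not called were JUND and KLF6. With the control ratio as a covariate 11 rose, and from dose means 20. Over all 27307 probe sets the 3574 higher calls became 507 with that covariate and 592 from dose means.

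EGR1, a zinc finger transcription factor (the probe set of largest change), had a lowest, median and highest intensity of 85.3, 173 and 207 at low doses and 293, 525 and 595 at middle doses. DMSO arrays were at 520, 644 and 609, and 0.5 nM arrays at 366 and 201. All middle arrays lay above all low arrays, DMSO stood with the middle doses, and of the 0.5 nM arrays 1 lay inside the middle range and the other inside the low range. The difference was 1.53 ± 0.14 log2 (SE), a 2.89-fold higher level (adjusted p 1.3e-06). Against DMSO the low doses differed by -1.82 (adjusted p 1.2e-05) and the middle doses by -0.29 (adjusted p 0.54). All 3 tested probe sets of EGR1 rose, but the probe set of highest mean, which represents the gene in the list, did so by 0.19.

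FOS, a partner in the AP-1 transcription factor, ran at 72.2, 93.9 and 118 at low doses and at 164, 258 and 333 at middle doses, with DMSO at 292, 334 and 380. The groups did not overlap, and the middle arrays reached into the DMSO values. The 0.5 nM arrays of FOS, at 204 and 141, lay above all low arrays, so its levels did not rise in order of dose. Its difference was 1.29 ± 0.10 (adjusted p 2.3e-07), and the low doses differed from DMSO by -1.68 (adjusted p 1.4e-06). Its means were 92.4 ± 17.1 (SD, n = 3), 97.9 ± 23.6 and 92.8 ± 19.3 at 0.1, 1 and 5 nM. At 10, 50 and 100 nM the means were 309 ± 20.8, 237 ± 29.9 and 225 ± 67.0. No difference within either range passed the F test (adjusted p 0.97 among low and 0.35 among middle doses).

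EGR3, a relative of EGR1, had 20.5, 31.8 and 58.6 at low doses and 69.7, 122 and 172 at middle doses (1.48 ± 0.11, adjusted p 1.4e-07). The groups did not overlap, and the low median lay under the level minimum, so this change depends on the offset. FOSL1, another AP-1 subunit, had 148, 210 and 311 at low doses and 378, 492 and 655 at middle doses (1.14 ± 0.11, adjusted p 1.6e-06). All its middle arrays were above all low arrays, and of the DMSO arrays, at 301, 327 and 368, 1 lay inside the low range and the others between the ranges. Its 0.5 nM arrays, at 456 and 327, lay above all low arrays. CCN2, a matricellular protein, had 176, 236 and 386 against 362, 448 and 541, with some overlap, and rose by 0.81 ± 0.11 (adjusted p 3.7e-05, not called with the control ratio as a covariate).

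**Figure D2:**
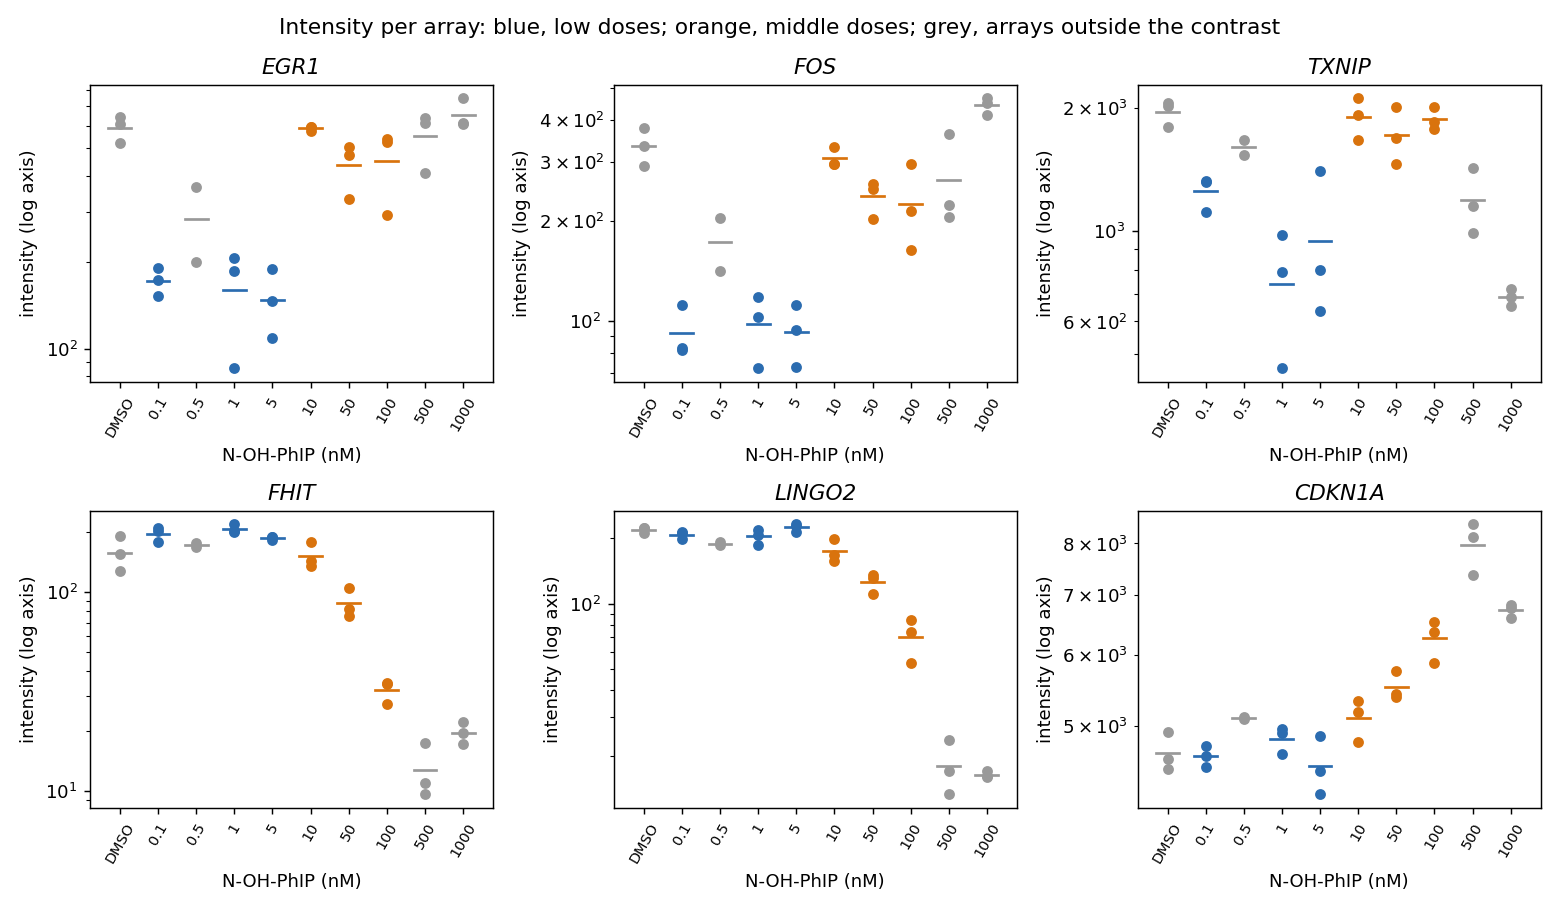
Intensity on a log axis for 6 genes by group, from DMSO to 1000 nM N-OH-PhIP, with a point for each array and a bar for each group mean. EGR1, FOS and TXNIP rise from 5 to 10 nM to near the DMSO level. Their 0.5 nM arrays do not all lie with the low doses. FHIT and LINGO2 decline and CDKN1A climbs across 10, 50 and 100 nM from levels near DMSO.

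As a list, the low doses were the side that differed from the solvent. Against DMSO, 18 of the 28 immediate early genes were lower at the low doses and 0 higher, while at the middle doses 1 was lower and 0 higher. Both comparisons share the same 3 DMSO arrays. Over all probe sets, 510 differed between low doses and DMSO (1.87%), of which 172 (0.63%) were higher and 338 (1.24%) lower, and 481 between middle doses and DMSO (1.76%), of which 239 (0.875%) were higher and 242 (0.886%) lower. These counts depended on single control arrays. The low count was 72 without DMSO replicate 2, 234 without DMSO replicate 3 and 310 without 1 nM replicate 1, and the middle count 68 without DMSO replicate 2 and 163 without DMSO replicate 1. Relative to the mean of the low doses, the list's median was 0.53, 0.33 and 0.37 at 10, 50 and 100 nM. It stood at 0.43 in DMSO and 0.30 at 0.5 nM, and reached 0.93 and 0.90 in the 500 and 1000 nM arrays. Of the 28 members, 1 differed among the middle doses and 0 among the low doses.

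**Figure D3:**
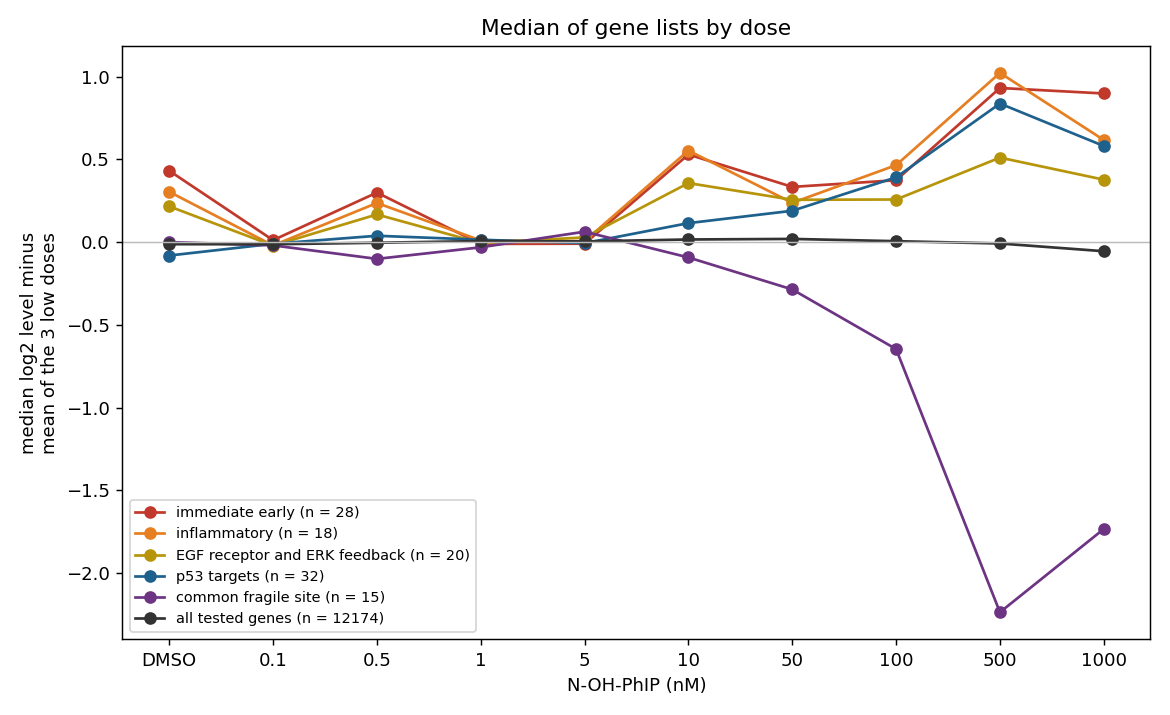
Median log2 level of the tested members of 5 gene lists and of all 12174 tested genes, relative to the mean of the 3 low doses, by group. Immediate early, inflammatory and ERK feedback genes lie above the low doses in DMSO, at 0.5 nM and from 10 nM on, while p53 targets climb and fragile site genes decline from 10 nM, both from near the DMSO level.

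Feedback genes of the ERK pathway and ligands of the EGF receptor were also mostly higher at the middle doses. Of the 20 tested, 13 rose and 1 fell, with a median of 0.30, and with the control ratio as a covariate 6 rose. SPRY4, an inhibitor of receptor tyrosine kinase signalling, had 452, 540 and 691 at low doses and 764, 1070 and 1185 at middle doses, with DMSO at 826, 891 and 952. The ranges did not overlap, and the difference was 0.89 ± 0.08 (adjusted p 8e-07). The 0.5 nM arrays of SPRY4, at 788 and 792, lay inside the middle range. DUSP6, a phosphatase of ERK, rose in all 3 tested probe sets, and the one of largest change went from 112, 179 and 205 to 240, 279 and 402 (0.76 ± 0.09, adjusted p 1.7e-05). DUSP5, a nuclear ERK phosphatase, rose by 0.70 ± 0.09 with overlapping groups, and HBEGF, a ligand of the EGF receptor, by 0.59 ± 0.07 without overlap. DUSP5 was not called with the covariate (0.56, adjusted p 0.057). The receptors EGFR, ERBB2 and ERBB3 were not called, at 0.05, 0.12 and 0.01. The single member that fell was BTC, a ligand, at -0.23 ± 0.07 (adjusted p 0.022). Against DMSO, 6 members were lower at the low doses and 1 was higher at the middle doses.

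Inflammatory cytokines and NF-kB targets had 16 higher and 0 lower members of 18 tested, with a median of 0.45, and 5 rose with the control ratio as a covariate. CXCL8, a neutrophil chemokine, had 37.4, 66.5 and 104 at low doses and 76.4, 120 and 194 at middle doses, with DMSO at 123, 149 and 175. Its groups overlapped, and it rose by 0.79 ± 0.12 (adjusted p 0.00017). CXCL1, a related chemokine, went from 44.0, 51.4 and 59.2 to 61.7, 89.7 and 139 without overlap (0.67 ± 0.09, adjusted p 4.3e-05). CCL20, which attracts dendritic cells, rose by 0.70 ± 0.14 with overlap, and LIF, a cytokine of the IL-6 family, by 0.65 ± 0.07 without. With the control ratio as a covariate CXCL8 (0.66, adjusted p 0.084) and CCL20 (0.30, adjusted p 0.43) lost their calls. CXCL5 and RELB were not called. The list's median by dose, relative to the low mean, was 0.30 in DMSO and 0.55, 0.24 and 0.47 for 10, 50 and 100 nM.

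TXNIP, which binds thioredoxin and restrains glucose uptake, had 461, 976 and 1402 at low doses and 1454, 1841 and 2105 at middle doses in its probe set of largest change. The ranges met closely but did not overlap, and the 1 and 5 nM arrays were the more scattered, with means of 743 ± 261 (SD, n = 3) and 946 ± 403 against 1247 ± 119 at 0.1 nM. The difference was 0.96 ± 0.13 (adjusted p 5.1e-05), and all 3 tested probe sets rose. The 0.5 nM arrays of TXNIP, at 1532 and 1671, lay inside the middle range. DMSO stood at 1790, 2053 and 2016, and the low doses lay 1.06 log2 below it (adjusted p 0.00096). At 500 and 1000 nM its means were 1186 ± 221 and 687 ± 32.6, back at the level of the low doses. ARRDC4, an arrestin of the same family, rose by 0.75 ± 0.10 and KLF10, a zinc finger factor, by 0.54 ± 0.08. Of 13 tested TXNIP and glucose-sensing genes, 5 rose and 1 fell, and with the control ratio as a covariate 3 rose.

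The other genes with the largest increases and no overlap were of mixed function. TRIB1, a pseudokinase, went from 74.3, 108 and 119 to 141, 163 and 282 (0.77 ± 0.10). EPHA2, an ephrin receptor, rose by 0.68 ± 0.07 and CHAC1, an enzyme that degrades glutathione, by 0.66 ± 0.07. The antisense RNA ITGB2-AS1 rose by 0.74 ± 0.12 and was not called with the control ratio as a covariate. The adjusted p lay between 3.2e-06 (CHAC1) and 0.00021 (ITGB2-AS1). Whether the array's signal for an antisense gene is free of its partner's was not tested.

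Target genes of p53 had 27 higher and 0 lower members of 32 tested, with a median of 0.25, and 15 rose with the control ratio as a covariate and 6 from dose means. Unlike the immediate early list, the p53 list was graded inside the middle range. Its median relative to the low doses was 0.12, 0.19 and 0.39 for 10, 50 and 100 nM, with DMSO at -0.08. The F test called 17 of the 32 among the middle doses and 0 among the low doses. Against DMSO, 19 were higher and 0 lower at the middle doses, and 4 higher and 2 lower at the low doses. The members not called were TNFRSF10B, CCNG1, PMAIP1, SPATA18 and FBXO22. Without the 100 nM arrays 19 members rose.

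CDKN1A, which encodes a cyclin-dependent kinase inhibitor, had 4196, 4656 and 4960 at low doses and 4796, 5437 and 6543 at middle doses, with DMSO at 4588, 4479 and 4920. The ranges overlapped at their edge, and the means climbed from 5105 ± 278 at 10 nM through 5527 ± 202 at 50 nM to 6267 ± 343 at 100 nM (F test among middle doses, adjusted p 0.01). The difference between the ranges was 0.27 ± 0.03 (adjusted p 6.8e-06). MDM2, whose product marks p53 for degradation, rose by 0.14 ± 0.02 (adjusted p 0.00056) in a probe set at 4458, 4929 and 5522 against 4855, 5453 and 6148. Its groups overlapped widely, the middle means being 4900 ± 69.0, 5427 ± 120 and 6094 ± 82.6, and the call was lost without the 100 nM arrays. GDF15, a secreted stress cytokine, had 1325, 1492 and 1782 against 1665, 1711 and 1877 and rose by 0.19 ± 0.03 (adjusted p 0.00086), a call lost with the covariate (adjusted p 0.19).

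ACER2, an alkaline ceramidase, had 111, 129 and 173 at low doses and 141, 199 and 318 at middle doses, with DMSO at 122, 120 and 124. The groups overlapped, and the middle means were 154 ± 12.7, 197 ± 6.84 and 288 ± 30.9 from 10 to 100 nM. It rose by 0.57 ± 0.06 (adjusted p 3.5e-06), and against DMSO by 0.68 at the middle doses (adjusted p 9.7e-05). TNFRSF10C, a decoy receptor of TRAIL, rose by 0.53 ± 0.09, and all 4 tested probe sets rose. Its middle means were 103 ± 25.3, 143 ± 15.5 and 215 ± 53.3, and it was not called with the covariate (0.58, adjusted p 0.058). The polo-like kinases PLK2 and PLK3, also p53 targets, did not follow this grade. PLK2 had 211, 282 and 291 at low doses and 355, 430 and 553 at middle doses, with no overlap and DMSO at 380, 443 and 394 (0.62 ± 0.06, adjusted p 3.2e-06). Its low doses stood 0.56 log2 below DMSO (adjusted p 0.0043), and the F test among middle doses gave an adjusted p of 0.52. PLK3 rose by 0.60 ± 0.06 with no overlap (F test among middle doses, adjusted p 0.99).

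Genes at common fragile sites fell in 11 of 15 tested members and rose in 0, with a median of -0.44. With the control ratio as a covariate 7 fell, and from dose means 1, where the spread between 10, 50 and 100 nM is the error. Relative to the low doses the median was -0.09, -0.29 and -0.65 for 10, 50 and 100 nM, and it was near 0 in DMSO. The 500 and 1000 nM arrays reached -2.24 and -1.73. The F test called 10 members among the middle doses and 0 among the low doses. Against DMSO, 9 were lower at the middle doses and 0 were called at the low doses. The members not called were MACROD2, DMD, PDE4D and AUTS2.

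FHIT, a diadenosine triphosphate hydrolase at the fragile site FRA3B, had 177, 200 and 219 at low doses and 27.2, 82.4 and 179 at middle doses, with DMSO at 127, 155 and 190. The ranges overlapped by a single 10 nM array. The means fell from 152 ± 23.6 (SD, n = 3) at 10 nM to 87.8 ± 15.4 at 50 nM and 32.2 ± 4.38 at 100 nM, where signal and background were not separable here. The difference between the ranges was -1.18 ± 0.06 (adjusted p 1.8e-09), and among the middle doses the F test gave an adjusted p of 4.5e-08. LINGO2, a leucine-rich repeat membrane protein, went from 185, 214 and 232 to 53.2, 131 and 199 with overlap (-0.79 ± 0.07, adjusted p 5.2e-07). Its middle means were 175 ± 21.9, 126 ± 13 and 70.6 ± 15.8. PARD3B, a relative of the polarity protein PARD3, went from 191, 241 and 267 to 71.7, 159 and 222 (-0.73 ± 0.07, adjusted p 1.1e-06).

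Genes with the largest decreases and no overlap between ranges were led by LTBP1, which binds latent TGF-β. It had 291, 317 and 400 at low doses and 99.6, 201 and 271 at middle doses, and DMSO at 278, 293 and 317 lay above all middle arrays (-0.71 ± 0.08, adjusted p 7.8e-06). RBMS3, an RNA-binding protein, went from 134, 159 and 183 to 56.7, 96.3 and 123 (-0.68 ± 0.05, adjusted p 1.2e-07), with middle means of 118 ± 6.12, 98.3 ± 5.67 and 66.3 ± 8.62. PTPRG, a receptor tyrosine phosphatase, fell by 0.64 ± 0.07 on the log2 scale in a probe set without overlap and by 0.56 ± 0.07 in another with overlap, the latter not called with the covariate (adjusted p 0.066). NALCN, a sodium leak channel, fell by 0.49 ± 0.05, GRIP1, a scaffold protein of glutamate receptors, by 0.49 ± 0.05 and NBEA, a protein of vesicle traffic, by 0.44 ± 0.04. Of these 6 genes, LTBP1, RBMS3, PTPRG, NALCN and NBEA also differed among the middle doses, and GRIP1 did not pass (adjusted p 0.25).

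The remaining decreases without overlap were of mixed function. SULF1, an extracellular sulfatase, had 90.8, 106 and 133 at low doses and 43.4, 67.2 and 84.8 at middle doses, with DMSO at 66.8, 56.7 and 84.7. DMSO lay with the middle doses for this gene, the low doses were 0.53 log2 above it (adjusted p 0.0014), and the difference between the ranges was -0.62 ± 0.06 (adjusted p 1.3e-06). IFI44, an interferon-induced gene, fell by 0.57 ± 0.08 and NPNT, an integrin ligand, by 0.51 ± 0.06. The noncoding genes STX18-AS1, DLGAP1-AS2 and LOC105372255 fell by 0.49 ± 0.06, 0.44 ± 0.05 and 0.44 ± 0.06. The adjusted p lay between 1.3e-06 (SULF1) and 0.00011 (IFI44), and the IFI44 call was lost with the control ratio as a covariate.

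Gene length, taken from the RefSeq table of GRCh38.p14 for 12161 of the 12174 tested genes, was related to the direction of the calls. Of 4772 genes under 20 kb, 18.4% rose and 5.43% fell. Of 5265 genes from 20 to 100 kb, 14.0% rose and 10.3% fell, and of 2001 genes from 100 to 500 kb, 6.20% rose and 22.3% fell. Of 123 genes over 500 kb, 72 (58.5%) fell and 3 (2.44%) rose, the latter being ADK, DLC1 and NRG1. Genes are not independent replicates, and these shares are descriptions. They come from the main fit, without the control ratio as a covariate.

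Among genes over 500 kb the median difference was -0.17, and relative to the low doses it was -0.06, -0.13 and -0.33 for 10, 50 and 100 nM. DMSO stood at -0.002 and the 500 nM arrays at -1.01. The genes from 100 to 500 kb stood at -0.02, -0.02 and -0.07 for 10, 50 and 100 nM, and those under 20 kb at 0.04 at each of these doses. Several of the falling genes named above are long, at 1504 kb for FHIT, 1276 kb for LINGO2, 1075 kb for PARD3B, 736 kb for PTPRG, 730 kb for NBEA and 729 kb for RBMS3. EGR1, FOS and TXNIP span 3.83, 3.40 and 4.15 kb. The tested genes longer than FHIT were not called. CNTNAP2 (2304 kb) was at -0.10, DMD (2220 kb) at 0.01, MACROD2 (2058 kb) at -0.06 and PDE4D (1553 kb) at -0.03. At 100 nM, relative to the low doses, CNTNAP2 was at -0.26, DMD at -0.005, MACROD2 at -0.13 and PDE4D at -0.10. These genes are few, and whether the relation changes above the length of FHIT was not tested. DMD, MACROD2 and PDE4D are fragile site members.

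**Figure D4:**
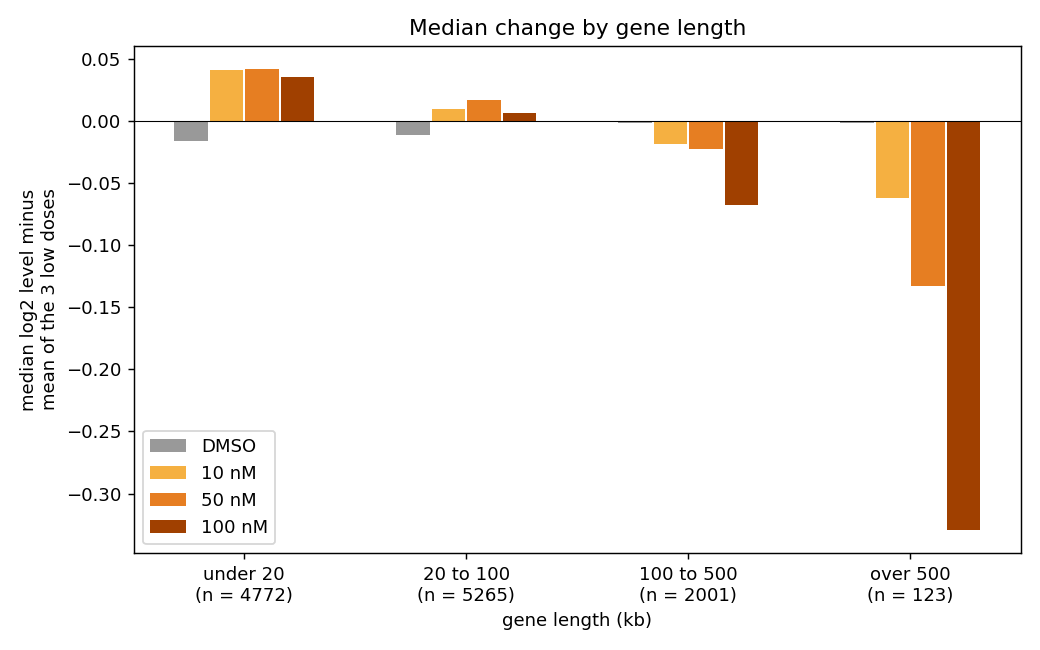
Median log2 level relative to the mean of the 3 low doses for genes in 4 classes of gene length (kb), with bars for DMSO, 10, 50 and 100 nM. The bars of genes over 500 kb reach -0.06, -0.13 and -0.33 at 10, 50 and 100 nM, while DMSO stays near 0 in each class.

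Called genes of xenobiotic defence were higher at the middle doses, by small amounts. Counts here are read against 14.3% higher and 10.9% lower among all tested genes. Of 6 tested aryl hydrocarbon receptor targets, 3 rose and 0 fell, with a median of 0.14, and 1 rose with the control ratio as a covariate. CYP1B1, a cytochrome of that battery, had 155, 192 and 220 at low doses and 165, 199 and 235 at middle doses and was not called (0.06 ± 0.06, adjusted p 0.46). CYP1A1, the classic target of the receptor, was too dim to be tested in either range, at 17.97, 22.5 and 35.6 and at 16.2, 21.5 and 33.0. NQO1, a quinone reductase shared with the NRF2 list, went from 2458, 2566 and 2720 to 2754, 2995 and 3217 with no overlap (0.21 ± 0.03, adjusted p 2.6e-05). TIPARP, a mono-ADP-ribosyltransferase induced by the receptor, rose by 0.24 ± 0.04. LINC-PINT, also on the list of nuclear long noncoding RNA genes, rose by 0.29 ± 0.09, and its link to the receptor was not tested. Neither of these calls held with the control ratio as a covariate. The differences were then 0.24 for TIPARP (adjusted p 0.074) and 0.36 for LINC-PINT (adjusted p 0.17), no smaller after rounding.

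With the control ratio as a covariate, 0 of 14 tested enzymes that activate or detoxify heterocyclic amines were called. Of all tested genes 14.3% were higher and 10.9% lower in the main fit. Of these enzymes 4 were higher (28.6%) and 0 lower in that fit, with a median of 0.08. The 4 were the glutathione transferase GSTM1 (0.23 ± 0.06), whose probe sets can share signal with close paralogues, the P450 reductase POR (0.22 ± 0.07), the cytochrome b5 reductase CYB5R3 (0.16 ± 0.05) and the sulfotransferase SULT1A1 (0.14 ± 0.04). Adjusted p ran from 0.0062 to 0.027. The count of 4 was 1 without 0.1 nM replicate 2 or 1 nM replicate 3 and 2 without 50 nM replicate 1. NRF2 antioxidant genes had 10 higher and 0 lower members of 21 tested, with a median of 0.12, and 3 rose with the covariate. TKT, a transketolase, rose by 0.38 ± 0.04, SRXN1, a sulfiredoxin, by 0.26 ± 0.04 and AKR1C2, an aldo-keto reductase, by 0.19 ± 0.05. HMOX1, heme oxygenase, had 20.3, 28.0 and 40.7 against 28.98, 34.2 and 42.2, mostly under the level minimum, and passed narrowly (0.18 ± 0.06, adjusted p 0.05 after rounding).

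Metabolic and stress lists shifted upward by small amounts. Their counts, here and in the next paragraph, are read against 14.3% higher and 10.9% lower among all tested genes. Hypoxia and glycolysis genes had 16 higher and 1 lower member of 26 tested, the lower one being BNIP3L, with a median of 0.16. ALDOC, an aldolase, rose by 0.46 ± 0.06, ENO1, an enolase, by 0.38 ± 0.06, and ANGPTL4, an inhibitor of lipoprotein lipase, by 0.55 ± 0.08. Cholesterol synthesis genes had 14 higher and 0 lower members of 19 tested, with a median of 0.14. DHCR7, the last reductase of the pathway, went from 198, 225 and 244 to 249, 270 and 352 without overlap (0.34 ± 0.05), with DMSO at 276, 281 and 286 among the middle arrays. SQLE, squalene epoxidase, rose by 0.28 ± 0.04 and INSIG1, a sterol-sensing regulator, by 0.27 ± 0.06. With the control ratio as a covariate, 7 hypoxia genes and 3 cholesterol genes rose.

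Heat shock genes had 7 higher and 0 lower members of 15 tested, with a median of 0.11. DNAJA1, a co-chaperone, had 2320, 2435 and 2548 at low doses and 2803, 3033 and 3392 at middle doses, with no overlap and DMSO at 2903, 3231 and 3013 (0.33 ± 0.03, adjusted p 1.1e-06). DNAJB1 rose by 0.27 ± 0.04 and the small heat shock protein gene HSPB1 by 0.26 ± 0.04, both without overlap. With the control ratio as a covariate, 5 heat shock, 2 metallothionein and 2 integrated stress genes rose. Metallothioneins, metal-binding proteins of near-identical sequence whose probe sets may share signal, had 6 higher members of 9 tested, with MT2A at 0.25 ± 0.04. Integrated stress and unfolded protein response genes had 9 higher and 2 lower members of 30 tested, with a median of 0.05. Besides CHAC1, SESN2 rose by 0.39 ± 0.05, ATF3 by 0.31 ± 0.06 and DDIT4, an inhibitor of mTOR signalling, by 0.18 ± 0.03.

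TGF-β and SMAD targets had 11 higher and 1 lower member of 22 tested, the lower one being LTBP1, with a median of 0.19, and 1 rose with the control ratio as a covariate. ID1, which blocks DNA binding by helix-loop-helix proteins, rose by 0.59 ± 0.09. Actin cytoskeleton genes and targets of YAP or SRF had 14 higher and 1 lower member of 24 tested, and 0 were called with that covariate. MYL9, a myosin light chain, rose by 0.36 ± 0.06, ZYX, zyxin, by 0.32 ± 0.05 and ACTN4, an actinin, by 0.29 ± 0.05. Glucocorticoid and cAMP responsive genes had 8 higher and 1 lower member of 15 tested, with SGK1, a kinase, at 0.50 ± 0.08, and 2 rose with that covariate. Interferon-stimulated genes had 2 higher and 2 lower members of 21 tested (9.52% each). Both shares were under those of all tested genes, 14.3% higher and 10.9% lower. IRF1 (0.25 ± 0.05) and TAP1 (0.21 ± 0.05) were higher and IFI44 and OASL (-0.24 ± 0.08) lower, of which TAP1 kept its call with that covariate.

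Genes of proliferation and DNA repair showed small differences in both directions. Counts here and in the next paragraph are read against 14.3% higher and 10.9% lower among all tested genes. G2/M and mitosis genes had 2 higher and 10 lower members of 40 tested, with a median of -0.03. HMMR, a spindle-associated protein, fell by 0.14 ± 0.02, CENPE, a kinetochore motor, by 0.14 ± 0.04 and ANLN, anillin, by 0.14 ± 0.03, while KIF20A, a kinesin, rose by 0.15 ± 0.05. None of these calls held with the control ratio as a covariate, under which 0 of the 40 fell. DNA replication and G1/S genes had 5 higher and 6 lower members of 38 tested (13.2% and 15.8%, near the shares of all genes). Replication-dependent histone genes had 4 higher members of 8 tested. With that covariate 1 replication gene rose and 1 fell, and 0 histone genes were called. The 5 higher replication genes became 2 or 3 without 100 nM replicates 1 or 3, 50 nM replicates 1 or 2, 10 nM replicate 2 or 0.1 nM replicate 2. Nucleotide excision repair genes, which remove bulky adducts, had 4 higher and 4 lower members of 25 tested (16% each), and with that covariate 1 and 0. These shares too were near those of all genes. Among them XPC, the damage sensor, rose by 0.20 ± 0.05 and DDB2, its partner in damage recognition, by 0.12 ± 0.04. The middle-dose range of DDB2 was 1337 to 2189 and its low-dose range 1432 to 1727, with a difference among the middle doses (F test adjusted p 0.00019) and a value of -0.03 without the 100 nM arrays.

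Fanconi and homologous recombination genes had 1 higher and 3 lower members of 22 tested, base excision and mismatch repair genes had 1 higher and 3 lower members of 21 tested, and translesion and checkpoint genes had 2 higher and 5 lower members of 28 tested. POLH, the translesion polymerase that is also a p53 target, rose by 0.17 ± 0.04. With the covariate 2 genes of these lists rose and 0 fell. Base excision genes had 1 lower member without 10 nM replicate 3 or 1 nM replicate 1 and up to 3 higher ones without 0.1 nM replicate 1, and Fanconi genes had 5 lower ones without 5 nM replicate 3. Apoptosis genes had 5 higher and 1 lower member of 24 tested, and the 5 became 2 with the covariate and 3 without 50 nM replicate 1, 5 nM replicate 1 or 1 nM replicate 3. BAX, a pore-forming death effector, had 902, 994 and 1026 against 970, 1141 and 1498 and rose by 0.26 ± 0.04, with a difference among the middle doses (adjusted p 0.0081). MCL1, a survival protein with a short-lived message, rose in all 5 tested probe sets, by 0.33 ± 0.05, and stood 0.39 log2 below DMSO at the low doses (adjusted p 0.013). BCL2 fell by 0.38 ± 0.09 with overlapping groups.

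Genes of basal machinery showed small differences, read here against 14.3% higher and 10.9% lower among all tested genes. Cytosolic ribosomal protein genes had 3 higher and 4 lower members of 27 tested, splicing factor genes had 2 higher and 4 lower members of 29 tested, and nuclear-encoded respiratory chain genes had 6 higher and 0 lower members of 28 tested. Proteasome subunit genes had 10 higher and 0 lower members of 24 tested with a median of 0.07, and 1 rose with the control ratio as a covariate and 1 from dose means. The 10 became 6 without 100 nM replicate 2 or 0.1 nM replicate 2, and the 4 lower ribosomal genes became 1 without 50 nM replicate 2 and 2 without 100 nM replicate 2, 50 nM replicate 1, 10 nM replicates 1 or 2, 1 nM replicates 2 or 3, or 0.1 nM replicate 2. The 3 higher ones became 5 without 100 nM replicate 3. Nuclear long noncoding RNA genes had 2 higher and 3 lower members of 10 tested, mesenchymal and extracellular matrix genes had 5 higher and 1 lower member of 15 tested, and retinoid response genes had 1 higher member of 7 tested. With that covariate 2 respiratory chain genes and 1 mesenchymal gene rose, and 0 ribosomal, splicing, long noncoding RNA or retinoid genes were called. The 5 higher mesenchymal genes became 3 without 50 nM replicate 2. The medians of the ribosomal and splicing lists were both -0.01.

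**Figure D5:**
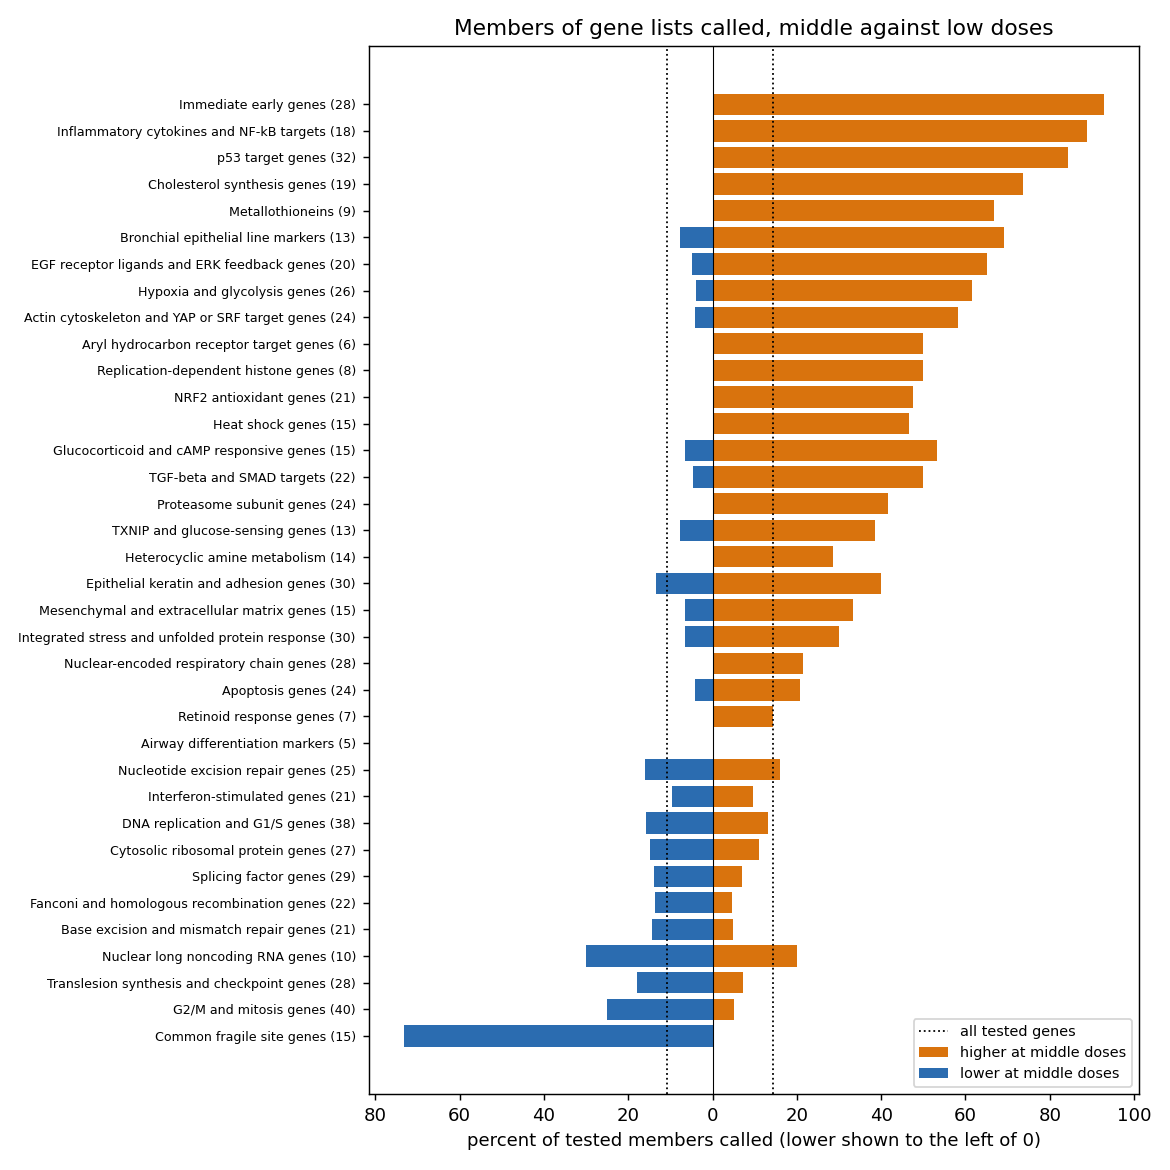
Percent of the tested members of each gene list (number of members in brackets) that were higher (right) or lower (left) at the middle doses. Dotted lines mark all tested genes, of which 14.3% were higher and 10.9% lower; the 26 of 28 immediate early genes stand at the top and the 11 of 15 fragile site genes at the bottom.

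Markers of the bronchial epithelial line were expressed in both ranges and moved with them. Of 17 listed, 13 were tested, 9 rose and 1, CDH1, fell by 0.05, against 14.3% higher and 10.9% lower among all tested genes. With the control ratio as a covariate 6 rose and 0 fell. The summed intensity of the 14 markers measured had a lowest, median and highest value of 31733, 32774 and 35421 at low doses and 35183, 36901 and 41884 at middle doses, with DMSO between 35210 and 36584. Those ranges overlapped slightly. KRT5, a basal cell keratin, had 488, 573 and 772 at low doses and 657, 854 and 1082 at middle doses, with DMSO at 788, 972 and 794 (0.50 ± 0.07, adjusted p 3.9e-05). SFN, stratifin, rose by 0.45 ± 0.04 without overlap, KRT8 by 0.42 ± 0.07 and KRT7 by 0.42 ± 0.07. The basal keratin KRT14 was at 10.4 to 19.7 over the 18 arrays, under the level minimum. The wider list of epithelial keratin and adhesion genes had 12 higher and 4 lower members of 30 tested, among the risen JUP, plakoglobin, at 0.42 ± 0.05. With that covariate 6 rose and 0 fell, and the 4 became 1 without 1 nM replicate 3 or 0.1 nM replicate 2 and 2 without 100 nM replicate 2 or 50 nM replicates 1 or 2. In bulk RNA, fewer cells of a kind and less message per cell cannot be told apart.

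Markers of other cells were mostly under the level minimum. Of 20 leukocyte, 16 endothelial and 16 fibroblast markers, 3 of each were tested, and of 17 markers of differentiated airway cells 5 were tested and 0 called. Among the leukocyte markers CORO1A, an actin regulator (0.35 ± 0.06), and CD74, the invariant chain (0.25 ± 0.05), rose, and of these CORO1A kept its call with the control ratio as a covariate. The summed leukocyte markers ran from 682 to 779 at low doses and from 788 to 904 at middle doses, with DMSO between 729 and 764, while the defining marker PTPRC stayed between 7.65 and 11.01 and CD3E between 6.37 and 8.11, both under the level minimum on all 18 arrays. CD14, a monocyte marker, was tested and ran from 31.3 to 55.5 with a median of 46.9, above the level minimum. The fibroblast marker COL1A1, at 552 to 764, and the airway marker MUC5AC, at 63.8 to 119, lay above it on all 18 arrays. The fibroblast markers COL1A2, DCN, LUM and PDGFRA stayed under it. The endothelial sums ran from 622 to 689 and from 653 to 740, and the fibroblast sums from 1689 to 1884 and from 1569 to 1915, with FBLN1, an extracellular matrix protein, down by 0.15 ± 0.04. Both pairs of ranges overlapped.

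The arrays outside the test place the called genes on the scale between the ranges, where the low mean is 0 and the middle mean 1. In DMSO the 3574 higher probe sets had a median position of 0.51 and the 2762 lower ones 0.53. The spread was wide, with 568 of the higher and 537 of the lower under 0, and 642 and 580 over 1. The scale is the same gap by which the probe sets were called, so a median near 0.5 does not place the solvent midway. For probe sets of at least 1.5-fold the positions parted. The 67 higher ones had a DMSO median of 0.70, with 51 nearer the middle doses, and the 36 lower ones had 0.18, with 26 nearer the low doses. At 0.5 nM these medians were 0.60 and -0.06, with 44 of the 67 nearer the middle doses and 33 of the 36 nearer the low doses. At 500 nM, 57 of the 67 and 36 of the 36 lay beyond the middle doses, and at 1000 nM 59 and 34. These positions are descriptions with no test. The log2 3′ to 5′ control ratio also lay beyond the middle doses there, at 0.91, 1.02 and 0.86 for 500 nM. For 1000 nM it was 0.84, 0.86 and 0.82. Its part in these positions was not tested.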

How the data were processed

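The authors deposited linear intensities per probe set for 29 arrays, with nearly equal array medians. The submitters' processing notes name GCOS, with no version or normalization known here, and the labels' protocols describe amplification of 40 ng of RNA with NuGEN Ovation kits.

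Control probe sets (62) were left out. Of the rest, 41091 had 1 gene symbol, 1801 several and 11721 none. Of those with 1 symbol in the platform annotation, 41037 matched RefSeq by identifier and 0 symbols changed. The 27307 probe sets with a mean log2(intensity + 16) at or above the median of 5.74 were tested in limma 3.58.1 (R 4.3.3) with a mean per dose, eBayes with the trend option and two-sided tests, with 12 residual degrees of freedom for the 18 arrays. Comparisons with DMSO used all 29 arrays (19 residual degrees of freedom). P-values were adjusted over all 27307. On data simulated for this comparison over 27307 probe sets, 78 of 100 changes of 0.3 log2 and 98 of 100 of 0.6 were recovered. There were 12 false calls, a count that holds for the simulated noise only. Whether false calls stay as few with a spread between the doses of a range or with a shifted control ratio was not tested. Figures were drawn with matplotlib 3.10.9.

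Genes named were the 12 higher and 12 lower of largest change whose ranges did not overlap, up to 4 called members of each of 39 lists, and, whatever their values, NQO1, HMOX1, CYP1A1, CYP1B1, GDF15, MDM2 and CDKN1A. Members named as not called, as falling alone in their list, or as rising among genes over 500 kb were added after their values were seen. In lists a gene is represented by its brightest tested probe set. Of 2639 genes with several tested probe sets and a call, 118 (4.47%) had calls in both directions. The members and lists were chosen with earlier results of these data known. Alternatives covered the offset, normalization, level filter, variance trend, a replicate block, the control ratio as a covariate, the arrays in the fit, the error between doses, a minimum of 1.5-fold, and leaving out each array or dose. Leaving out 5 nM replicate 3 and 0.1 nM replicate 2 together, and quantile normalization of the 18 arrays alone, were chosen after seeing the data. The 0.5 nM arrays entered the test in 1 alternative.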

Additional observations from a re-analysis of the deposited data

Results flagged for a closer look

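Among 62 groups of 9 arrays checked, each range of 30 genes and of the control ratio, 2 had an array whose gap to its neighbour exceeded 0.493 of the whole range. Chance gives about 1 in 20 groups. LTBP1 was at 400.3 in 5 nM replicate 1, above a low-dose median of 317, with a gap of 0.547 of the range. PTPRG was at 193 in 5 nM replicate 3, above a low-dose median of 128, with a gap of 0.694 of the range. Both values are on the high side of the low doses, from which these genes fell.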

How the results depend on the processing

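The 6336 differences between the ranges (3574 higher, 2762 lower) became 770 (507 and 263) with the 3′ to 5′ control ratio as a covariate, 811 (592 and 219) from dose means, 2975 (1853 and 1122) with dose as a random block, 4007 (2167 and 1840) in the upper 25% of mean level, and 103 (67 and 36) at 1.5-fold or more. They became 4004, with 1567 lower, with all 29 arrays in the fit, and 4218, with 2373 higher, without the 10 nM dose. The lower calls were 1837 without the 1 nM dose and 1808 without the 100 nM dose. Leaving out 1 array gave 4850 to 6736 (2702 to 3864 higher, 2030 to 2946 lower). The share of higher calls, 56.4%, was 51.2% after quantile normalization, 52.3% after median centring, 65.8% with the covariate and 73.0% from dose means.

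The 15 differences among low doses became 2 after quantile normalization, 862 with no level filter (where the 375 among middle doses became 254), 7 with the replicate block and 0 with the covariate, and ranged from 0 to 223 with 1 array left out. Leaving out 1 array gave 198 to 342 among the middle doses, 72 to 504 for low doses against DMSO and 68 to 455 for middle doses against DMSO. DDB2 was at -0.032 without the 100 nM dose, PSMD11 at -0.0048 with the covariate and CYP1B1 at -0.019 without the 10 nM dose. Of 153 results for named probe sets, calls were lost by 84 with the covariate, 79 from dose means, 32 with the random block, 29 without the 100 nM dose and 15 on leaving out some single array. Beyond the stated construction of each alternative, the cause was not tested.

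Same-numbered arrays of different doses did not deviate together (45 pairs, correlations from -0.37 to 0.38, median 0.01), so the numbers do not pair the samples; with the replicate block 6295 probe sets were called and 2 named calls were lost. Signal over background was not given with the intensities used, which limits statements on dim probe sets.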
